A study of Mus musculus with 8 samples.

Results

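The 33 genes described here are Myc, which encodes a transcription factor of cell growth, and 32 genes of ribosome production and the metabolism that goes with it. They were chosen by name, as a fixed list, from the 32285 genes of the deposited single-cell count tables, and all 33 were found. Their levels were followed across B cell and T cell classes of mouse deep cervical lymph nodes, which drain the brain and its coverings, and across 5 libraries. Myc (ENSMUSG00000022346) lies on chromosome 15 from 61985341 to 61990361 in GRCm38.p6, the RefSeq patch release of the mm10 build named in the submitters' processing notes.

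All mice were C57BL/6, and nodes were taken on day 20 after an injection into the brain. The depleted anti-CTLA-4 and depleted isotype libraries came from mice that carried the GL261 glioma, a transplantable mouse brain tumour line, and had been given anti-CD20, an antibody that removes B cells, together with anti-CTLA-4 or an isotype control IgG. The anti-CTLA-4 and isotype libraries came from glioma-bearing wild-type mice that kept their B cells and received either of the same antibodies, of which anti-CTLA-4 blocks an inhibitory receptor of T cells. The saline library came from mice injected with DPBS in place of tumour cells, and whether they received an isotype antibody is not given in the sources used here. Live immune cells were sorted and sequenced from the 5′ end of transcripts with 10x Genomics chemistry. Each group had 1 library, and the number of mice behind it is not given in the sources used here, so no difference could be tested. Intervals are exact 95% intervals that cover counting error only.

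Ribosomes are assembled in the nucleolus. RNA polymerase I transcribes ribosomal RNA there, small nucleolar RNA-protein particles modify it, and a series of assembly factors cut, fold and pack it into the small and the large subunit. Myc is known to raise transcription at many of these steps, and lymphocytes that leave rest after antigen contact are known to induce Myc and to enlarge before they divide. In germinal centres, where B cells divide and mutate their receptors, Myc protein is known from other work to mark only a minor share of the cells at any time.

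Myc and its partner Max bind the E-box, whose strongest form is CACGTG, a word that reads the same on both strands. Promoter windows from 250 bases before to 50 bases after each annotated start were taken from RefSeq for 26 of the 33 genes. CACGTG stood in a window of 6 of the 26, which is 23.1%, against 1788 of 20267 genes of the count tables with a window, which is 8.82%. The 6 were Nop2, Eif4a1, Eif5a, Wdr43, Mybbp1a and Utp20. Genes with several annotated starts have several windows and so more chances of a match. The stretches below show the word upstream of a start in 3 genes of different roles, an assembly factor of the large subunit, a translation initiation helicase and a translation factor. They are given 5′ to 3′ on the gene's strand, with the E-box in capitals.
Nop2, chr6:125131796-125131855, plus strand: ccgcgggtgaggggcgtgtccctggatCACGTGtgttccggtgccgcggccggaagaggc
Eif4a1, chr11:69672580-69672639, minus strand: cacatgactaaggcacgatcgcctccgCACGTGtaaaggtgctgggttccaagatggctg
Eif5a, chr11:69921443-69921472, minus strand: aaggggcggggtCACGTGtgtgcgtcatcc
The first base of the word lay 60 bases before a start of Nop2, 189 before a start of Eif4a1 and 74 before a start of Eif5a. The Eif5a stretch lies inside the annotated span of that gene, from 69916712 to 69921958 on chromosome 11, because other transcripts start further upstream. A match is a word in a window and shows no binding.

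The libraries held between 54715065 and 63497466 UMIs (unique molecular identifiers, each standing for 1 captured transcript), and 45115 cells were kept. Cells were clustered without the 33 genes and the clusters named from marker genes. This gave 11454 follicular B-like cells, 672 activated B-like cells and 352 germinal centre B-like cells. The follicular class, the reference for the other B classes, joined 7 clusters and is not called resting as a whole. An Egr1-led cluster held 1762 of its cells, clusters led by Hspb1 and by Hspa1a 2270 and 1172, and an Ifit3-led cluster 408. Another 837 B cells formed 1 cluster led by Ppp1r14b, Mettl1, Mif, Ifrd2 and C1qbp. They are called growth-gene B cells after a separate list of 32 growth-linked genes that set them apart. The list holds chaperones, prohibitins, methyltransferases, cell cycle regulators, nutrient transporters and others, and C1qbp is on it. Mki67, a proliferation marker, stood at 2.89 CPM there, where CPM (counts per 1000000) are the UMIs of a gene scaled to a total of 1000000 UMIs of the class, here over all libraries and elsewhere within each library. A list of 8 cycling genes summed to 52.4 to 133 CPM in growth-gene B cells, against 34.7 to 40.3 in follicular cells, and at least 1 UMI of a cycling marker was found in 9.93%, 11.6% and 5.4% of growth-gene B cells of the anti-CTLA-4, isotype and saline libraries, against 4.49%, 3.70% and 3.36% of follicular cells. In the same way 5 T cell clusters with 696 cells are called growth-gene T cells. Since these 2 classes were picked by genes that move with growth, high levels of the 33 genes in them partly follow from the choice. The 5 B lineage markers summed to 23309.1 to 24800.6 CPM in growth-gene B cells, against 32544.4 to 33992.8 in follicular cells. The 5 T cell markers summed to 74.5 to 81.3 in growth-gene B and 28.9 to 42.9 in follicular cells, and their part in the results was not tested. The libraries from depleted mice held 12 follicular B-like cells each and no growth-gene B cell, so B classes other than germinal centre cells are given for the other 3 libraries only. The isotype library stood apart with 1.004% mitochondrial UMIs in the median cell, and the other 4 had 1.772% to 2.092%. Between 109 and 164 barcodes were shared by any 2 libraries.

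A gene is counted as higher or lower in a comparison where its ratio reached 1.5-fold with at least 100 UMIs over both sums. In growth-gene B cells the 33 genes summed to 10643.7 CPM in the anti-CTLA-4, 10836.4 in the isotype and 10577.5 in the saline library, against 2930.9, 2976.6 and 2884.3 in follicular cells of the same libraries. The ratios were 3.63 (3.57 to 3.70), 3.64 (3.58 to 3.70) and 3.67 (3.60 to 3.73). All 33 genes were higher in each of the 3 libraries, where the share of all genes tested that were higher was 15.9%, 16.7% and 15.8%, and the share that were lower 25.8%, 24.5% and 26%. The members' median log2 ratio was 1.88, 1.95 and 2.00, and that of all genes −0.15, −0.13 and −0.14. Among 6 B classes 31 of the 33 genes were highest in growth-gene B cells, with ranges over libraries that did not overlap those of the class with the second highest median. The exceptions were Myc, highest in activated B-like cells, and Odc1, for which germinal centre and plasma cell-like cells were highest with overlapping ranges. The share of all genes that were highest in growth-gene B cells was not counted, so these 31 have no such share beside them.

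**Figure D1:**
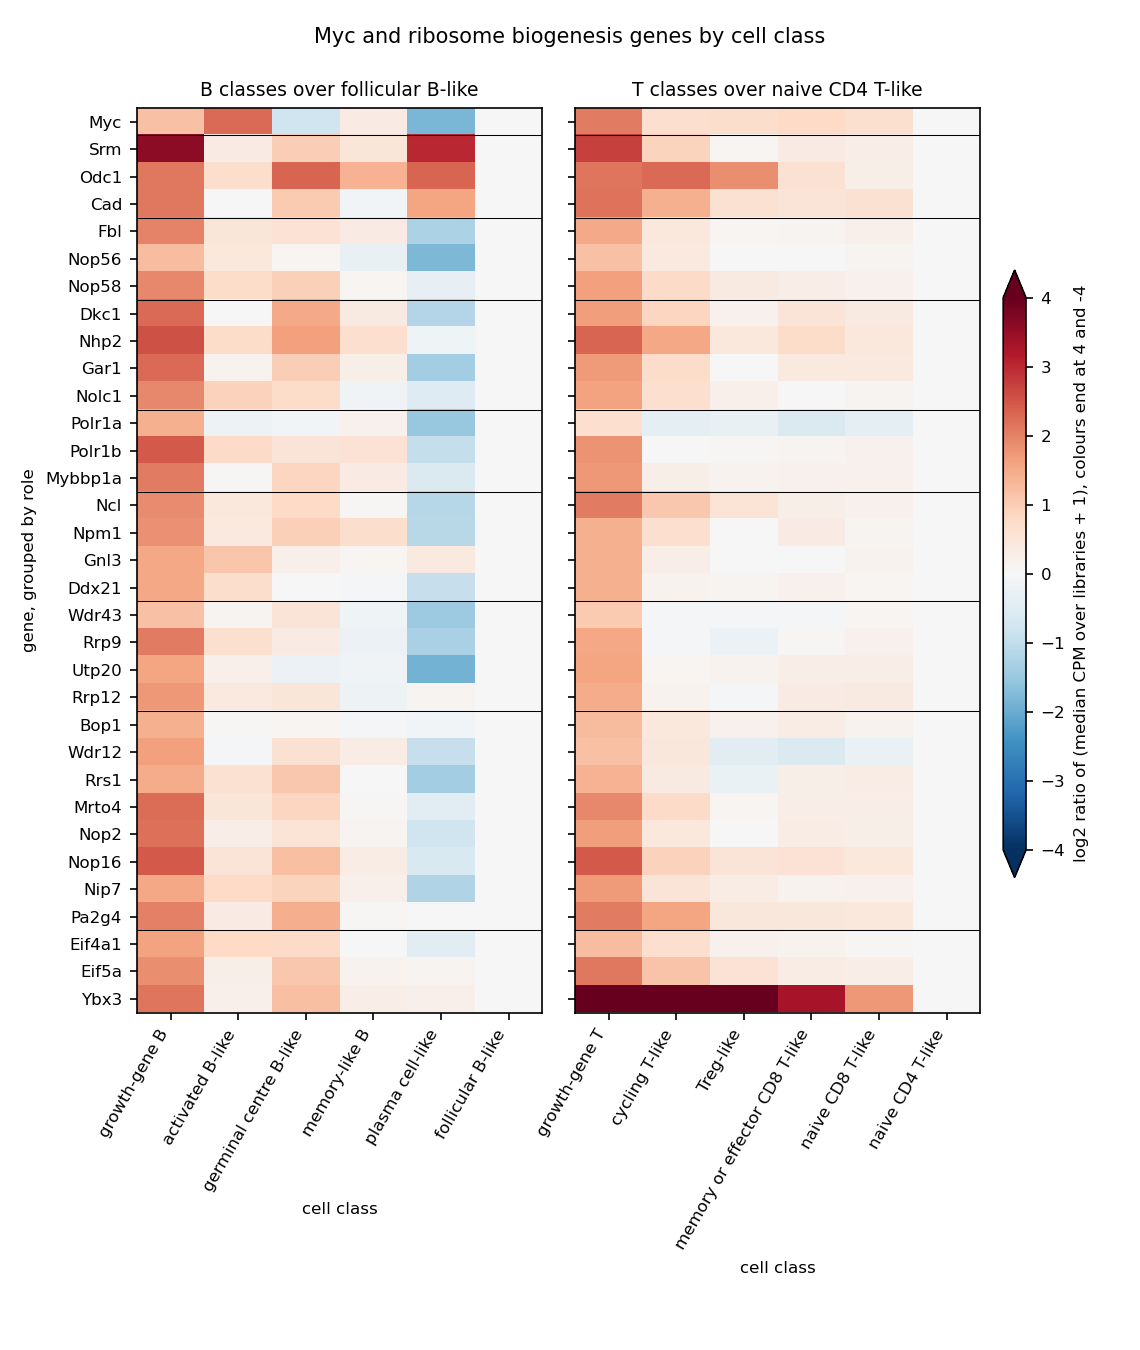
Log2 ratio of the median level over libraries, in CPM plus 1, of each of the 33 genes (rows, by role) in B classes over follicular B-like cells and in T classes over naive CD4 T-like cells (columns). Colours end at 4 and −4, and Ybx3 lies beyond 4 in some T classes. Growth-gene B and growth-gene T cells are high in nearly every row, while Myc is highest in activated B-like cells and below follicular cells in germinal centre B-like cells.

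Summed as a role group, the enzymes of polyamine and nucleotide synthesis gave the widest gap, and within the group Srm stood far above Odc1 and Cad. Srm, spermidine synthase, stood at 286 CPM in the anti-CTLA-4, 308 in the isotype and 296 in the saline growth-gene B cells, against 20.9, 23.9 and 26.8 in follicular cells, and the 2 classes were far apart in every library. Its ratios were 13.7 (11.8 to 15.9), 12.9 (11.3 to 14.8) and 11.05 (9.65 to 12.7). Odc1, ornithine decarboxylase, the first enzyme of polyamine synthesis, stood at 205, 192 and 220 CPM, against 49.01, 44.7 and 46.6 in follicular cells, and was 4.19 to 4.72 times as high. Cad, the enzyme that starts pyrimidine synthesis, was 4.23 to 5.63 times as high, from low levels of 40.6 to 44.9 CPM in growth-gene cells.

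The core proteins of the small nucleolar particles were higher as well, to differing extents. Fbl encodes fibrillarin, the methyltransferase of the box C/D particle, and had 557, 519 and 504 CPM in growth-gene B cells of the anti-CTLA-4, isotype and saline libraries, against 131, 135 and 129 in follicular cells. Its ratios ran from 3.86 to 4.26, those of its partner Nop58 from 3.61 to 4.19, and those of the second partner Nop56 from 2.28 to 2.38, the smallest mean among the 33 genes. The box C/D partners thus differed in size of change within the same cells. In the H/ACA particle, which turns uridine into pseudouridine, Dkc1, the enzyme dyskerin, was 4.07 to 5.75 times as high and the small core protein Nhp2 5.91 to 6.37 times. Gar1, another core protein, was 4.15 to 5.12 times as high, and Nolc1, a chaperone of these particles, 3.68 to 4.09 times.

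For RNA polymerase I, Polr1b, which encodes the second largest subunit, had 37.5, 37.4 and 34.4 CPM in growth-gene B cells of the anti-CTLA-4, isotype and saline libraries, against 5.95, 5.88 and 7.91 in follicular cells. Its ratios of 4.34 to 6.36 were above those of the largest subunit, Polr1a, at 2.71 to 2.89. Mybbp1a, a nucleolar protein that takes part in ribosomal RNA synthesis and processing, was 4.06 to 4.63 times as high. Both subunits were among the less abundant of the 33 genes, and for Polr1b in the anti-CTLA-4 library the interval ran from 4.46 to 8.84.

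Npm1 (nucleophosmin) and Ncl (nucleolin), abundant nucleolar proteins with roles in several steps, made up 17.0% and 10.5% of all UMIs of the 33 genes in growth-gene B cells. Npm1 stood at 1921, 1846 and 1690 CPM in the anti-CTLA-4, isotype and saline libraries, against 547, 517 and 504 in follicular cells, a ratio of 3.35 to 3.57. Ncl stood at 1051, 1218 and 1101, against 295, 298 and 270.3, a ratio of 3.56 to 4.08. Gnl3, nucleostemin, and Ddx21, an RNA helicase, had ratios of 2.90 to 3.17 and 2.93 to 3.07.

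Of the processing factors of the small subunit, Rrp9 was 4.34 to 4.55, Rrp12 3.62 to 4.24, Utp20 2.63 to 3.08 and Wdr43 2.21 to 2.51 times as high in growth-gene B cells as in follicular cells. Among assembly factors of the large subunit the range was wider. Bop1, a subunit of the PeBoW complex, was 2.40 to 2.94 times as high and its partner Wdr12 3.08 to 3.96 times. Nop16 was 5.67 to 5.95, Mrto4 4.68 to 5.86, Nop2, a ribosomal RNA methyltransferase, 4.75 to 4.98, Pa2g4 3.99 to 4.51, Nip7 2.91 to 3.49 and Rrs1 2.85 to 3.04 times as high. Eif5a, the translation factor that carries the spermidine-derived residue hypusine, stood at 1590, 1572 and 1473 CPM, against 431, 429 and 422 in follicular cells, a ratio of 3.49 to 3.69. Eif4a1, the helicase subunit of the cap-binding complex, was 2.86 to 3.11 and Ybx3, an RNA-binding cold shock protein, 4.42 to 4.91 times as high. The 6 genes with CACGTG in a window had mean ratios of 2.37 to 4.87 with a median of 3.31, and the 20 without had 2.32 to 6.15 with a median of 4.33, so the ranges overlapped.

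**Figure D2:**
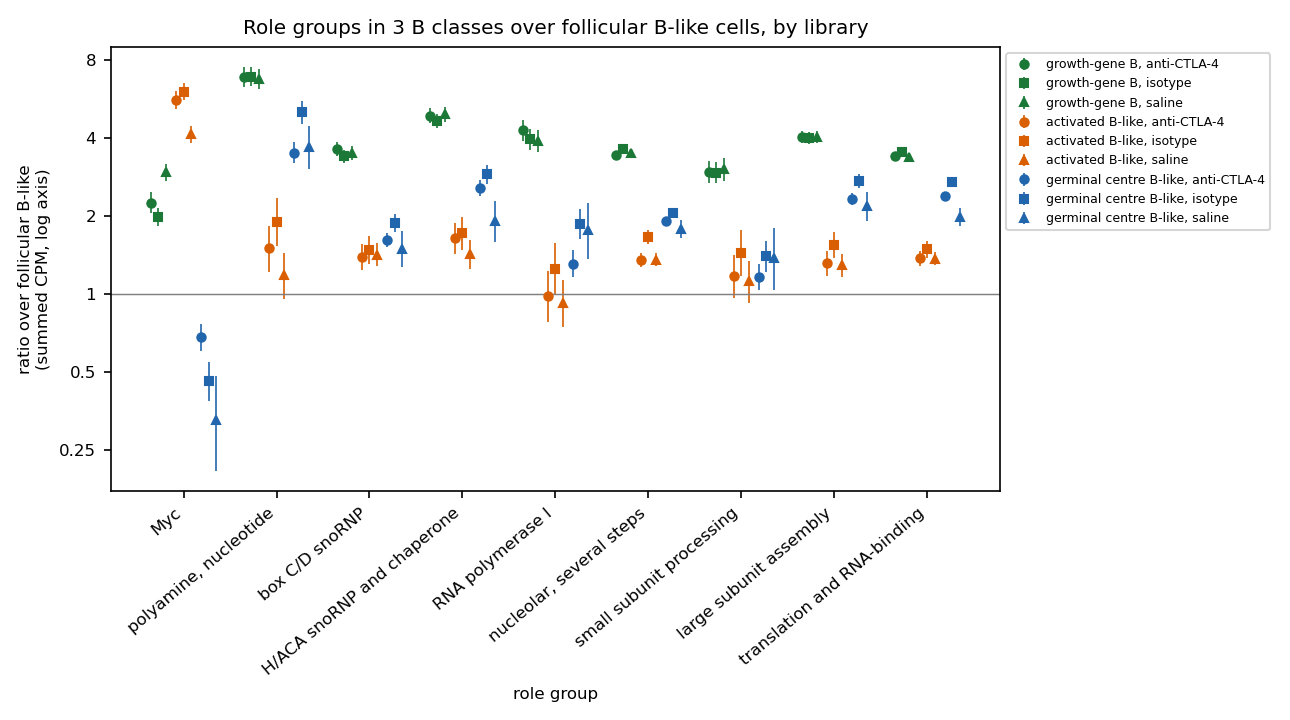
Ratio over follicular B-like cells of the summed CPM (vertical log axis; bars, exact 95% interval) of 9 role groups of the 33 genes, in growth-gene B, activated B-like and germinal centre B-like cells of the anti-CTLA-4, isotype and saline libraries. Polyamine and nucleotide enzymes reach 6.77 to 6.92 in growth-gene B cells, and Myc is the group that is highest in activated B-like cells and below 1 in germinal centre B-like cells.

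Genes outside the 33 were taken from lists of the same pathways. Of 78 further ribosome biogenesis genes, 62, 63 and 60 were higher in growth-gene B than in follicular cells of the anti-CTLA-4, isotype and saline libraries and none lower, with median log2 ratios of 1.03, 1.14 and 1.05. The 32 growth-linked genes that picked the class had 30, 31 and 30 higher. Of 26 translation factors 20, 21 and 20 were higher, and of 27 or 28 further genes of polyamine and nucleotide synthesis 19, 19 and 17. Of the remaining RNA polymerase I machinery 5 of 12, 6 of 13 and 4 of 12 genes were higher. Cell cycle genes were higher for 10 of 13, 11 of 13 and 8 of 12 tested, from low levels. Of 9 genes tested of the Myc network, its dimer partners and antagonists, 1, 0 and 0 were higher and 4, 4 and 3 lower. Immediate early and heat shock genes were mostly lower, 16, 16 and 13 of 21.

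Myc itself was highest in activated B-like cells, which are led by Egr2, Egr1, Nr4a3, Nfkbid and Fosb, genes known to be induced early after receptor signalling. Myc stood at 908 CPM in the anti-CTLA-4, 1301 in the isotype and 772 in the saline library, against 161, 214 and 187 in follicular cells. The ratios were 5.62 (5.18 to 6.10), 6.06 (5.62 to 6.54) and 4.14 (3.82 to 4.47), so the summed level of the activated class was the higher in each library. Myc alone made up 19.8% of the UMIs of the 33 genes in activated B-like cells, more than any other of them, against 4.19% in growth-gene B and 6.41% in follicular cells.

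The other 32 genes were only modestly above follicular cells there. Their sum was 1.36 (1.31 to 1.41), 1.57 (1.51 to 1.63) and 1.33 (1.29 to 1.38) times the follicular sum in the anti-CTLA-4, isotype and saline libraries. With Myc included 11 of 32, 16 of 32 and 10 of 33 genes tested were higher, where 5.31%, 7.26% and 4.24% of all genes tested were, and 1, 0 and 1 were lower, where 18.9%, 21.6% and 17.3% were. The members' median log2 ratio was 0.49, 0.61 and 0.31. Besides Myc the genes higher in all 3 libraries were Nop58, Nolc1, Nhp2, Gnl3 and Eif4a1. Srm had 29.5, 58.3 and 30.05 CPM, against 20.9, 23.9 and 26.8 in follicular cells, and Npm1 676, 721 and 617, against 547, 517 and 504. Bop1, Dkc1, Cad and Gar1 had mean ratios between 1.05 and 1.09. Growth-gene B cells had less Myc, 364, 425 and 552 CPM, and 3.63 to 3.67 times the follicular sum. Of the 15 activated B markers 13 were at least 1.5 times the follicular level in every library in activated B-like cells, and 5 were in growth-gene B cells. Immediate early and heat shock genes summed to 1.65, 1.30 and 1.54 times the follicular level in activated B-like cells and to 0.737, 0.608 and 0.802 times in growth-gene B cells.

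**Figure D3:**
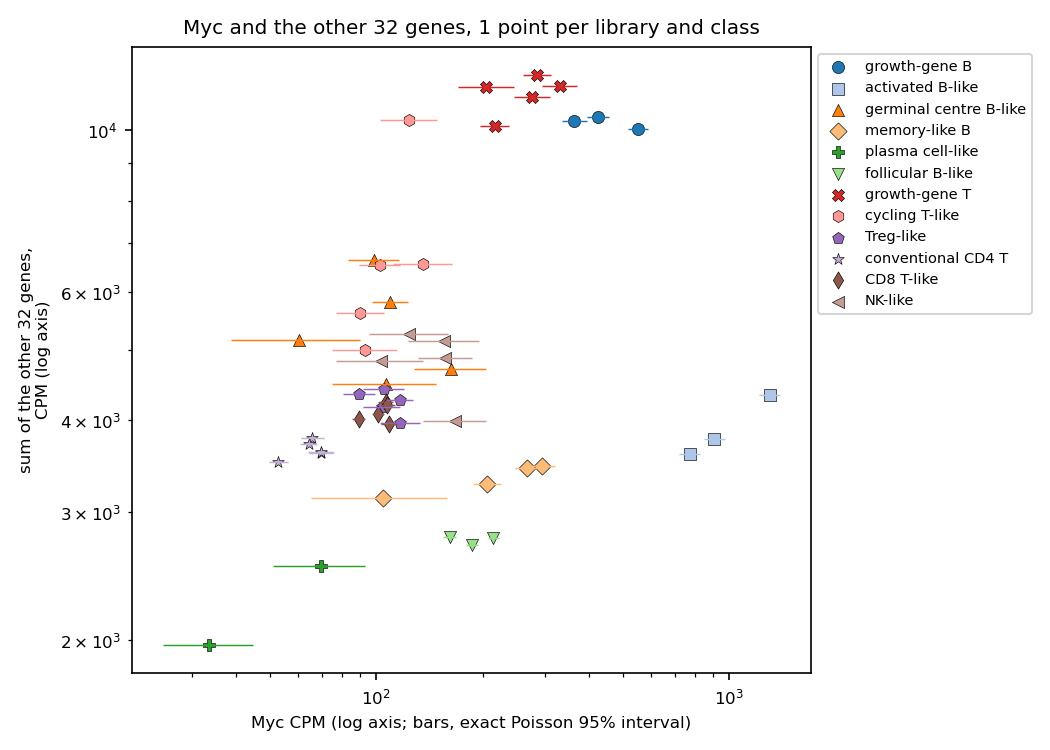
Myc against the sum of the other 32 genes, both in CPM (log axes; horizontal bars, exact Poisson 95% interval), with 1 point per cell class and library. Activated B-like cells lie far to the right at 3600.1 to 4339.5 for the other genes, growth-gene B cells lie to their left and at 10025.0 to 10411.1, and germinal centre B-like cells have little Myc and intermediate sums.

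In germinal centre B-like cells most of the other genes were above follicular cells in CPM and Myc was below. Of these 352 cells 184 were in the anti-CTLA-4, 74 in the isotype and 28 in the saline library, and 10 of 11 germinal centre markers were at least 1.5 times the follicular level in every library. Myc stood at 110 CPM in the anti-CTLA-4, 98.6 in the isotype and 60.5 in the saline library, against 161, 214 and 187 in follicular cells. Its ratios were 0.679 (0.600 to 0.767), 0.460 (0.386 to 0.544) and 0.324 (0.207 to 0.483), so Myc as a share of UMIs was below the follicular class as a whole in each library. That class joins clusters unlike in Myc, and its largest cluster had 91.4, 122 and 110 CPM. In the anti-CTLA-4 library the largest cluster thus lay below germinal centre B-like cells, and every other follicular cluster lay above them, at 128 to 356. Per cell, not scaled to CPM, germinal centre B-like cells held more Myc UMIs than follicular cells in each of these libraries. The other 32 genes summed to 2.10 (2.06 to 2.14), 2.40 (2.35 to 2.46) and 1.91 (1.83 to 2.00) times the follicular sum.

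Of the 33 genes 22, 27 and 19 were higher and 0, 1 and 3 lower in germinal centre B-like cells, where 25.1%, 25.4% and 24.3% of all genes tested were higher and 22.6%, 24.9% and 25.6% lower, since many genes differ between these classes. The members' median log2 ratio was 0.93, 1.1 and 0.84, and that of all genes 0.03, 0.02 and 0.05. Odc1 differed most, with 192, 243 and 237 CPM, against 49.01, 44.7 and 46.6 in follicular cells, ratios of 3.91, 5.43 and 5.08. Nhp2 was 2.56 to 3.67, Pa2g4 2.92 to 3.46 and Eif5a 2.04 to 3.13 times as high. Srm was 3.15, 4.71 and 1.79 times as high, well under its ratio in growth-gene B cells. Ddx21, Utp20, Polr1a, Nop56 and Gnl3 had mean ratios of 0.924 to 1.13. Of the 78 further ribosome biogenesis genes 20, 27 and 20 were higher, where 25.1%, 25.4% and 24.3% of all genes tested were. Lower were 2, 2 and 14, where 22.6%, 24.9% and 25.6% of all genes tested were. Of the 24 cell cycle genes all those tested were higher, 24, 24 and 18.

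Depth and division moved with these values. Germinal centre B-like cells held a median of 12783.5 UMIs, and per cell, not scaled to CPM, the summed 33 genes were 8.42, 11.4 and 6.52 times as high as in follicular cells. At least 1 UMI of a cycling marker was found in 80.4%, 90.5% and 71.4% of them. In the anti-CTLA-4 library, the only one with enough cells for a split, the 148 cells with a cycling UMI had 6143.3 CPM of the 33 genes and the 36 without had 3767.3, which were 2.10 (2.06 to 2.14) and 1.29 (1.20 to 1.37) times the follicular level. Their ratio was 1.63 (1.53 to 1.74), and 16 of 24 genes tested were higher with a cycling UMI, where 25.6% of all genes were. Myc had 114 CPM in cells with a cycling UMI and 71.8 in cells without, both below the follicular 161. Cells with a cycling UMI were also deeper, with medians of 15250 and 6668.5 UMIs, and the part of depth in the split was not tested. The few germinal centre B-like cells left after depletion, 41 under anti-CTLA-4 and 25 under isotype, had Myc at 163 and 107 CPM and Odc1 at 292 and 172.

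The remaining B classes differed gene by gene. Memory-like B cells, 1002 cells led by Fcrl5, summed to 1.27, 1.26 and 1.21 times the follicular level in the anti-CTLA-4, isotype and saline libraries. There 6, 5 and 3 genes were higher, where 4.75%, 5.75% and 4.98% of all genes were, none was lower, where 9.1%, 11.3% and 10% were, and Npm1, Nhp2 and Odc1 were so in all 3. In plasma cell-like cells, with 24 in the anti-CTLA-4 and 43 in the isotype library, immunoglobulin genes took 425433.0 to 429468.1 CPM, and the median log2 ratio of all genes to follicular cells was −1.11 and −1.13. Of 32 genes tested 16 and 19 were lower, where 69.2% and 69.8% of all genes were, and 3 were higher in each library, where 8.55% and 8.87% of all genes were, which is near the members' share. In both libraries the 3 were Srm at 197 and 206 CPM, 9.44 and 8.62 times the follicular level, Odc1 at 5.89 and 4.13 times and Cad at 3.24 to 3.36 times. Myc was 0.433 and 0.157 times the follicular level.

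In T cells the 33 genes were high together in the growth-gene class, which partly follows from its choice by growth-linked genes. Cycling T-like cells of the isotype library reached 10422.0 CPM as well. Growth-gene T cells of the depleted anti-CTLA-4, depleted isotype, anti-CTLA-4, isotype and saline libraries summed to 10348.0, 12151.3, 11369.9, 11662.6 and 11823.1 CPM, against 3531.5, 3374.8, 3635.1, 3456.3 and 3527.4 in naive CD4 T-like cells. The ratios ran from 2.93 (2.88 to 2.98) to 3.60 (3.54 to 3.66). Of the genes tested 32 of 33, 33 of 33, 33 of 33, 30 of 30 and 32 of 33 were higher, where 18.6%, 21.8%, 22.7%, 22.6% and 20.5% of all genes were. Ybx3 differed most, from 163 to 222 CPM in growth-gene T cells and 5.64 to 7.05 in naive CD4 T-like cells, ratios of 25.9 to 39.4. Srm was 5.87 to 8.14, Nop16 4.30 to 6.21 and Myc 3.17 to 5.81 times as high, and Polr1a, at 1.48 to 1.77, the least.

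The 5 clusters of growth-gene T cells were unlike in Myc. A CD8 cluster of 69 cells led by Xcl1, Lad1 and Gzmb had 17818.6 CPM of the 33 genes and 385 of Myc. A cluster of 155 cells with Il2, Itm2a, Nr4a1 and Irf4 among its leading genes had 14000.4 and 517. The largest cluster, 213 CD4 cells led by Lad1, Sox4 and Itm2a, had 9707.1 of the 33 genes but only 78.5 (66.4 to 92.2) of Myc, close to the 49.03 to 69.6 of naive CD4 T-like cells. A cluster of 206 cells led by Egr3 had the reverse order, 6864.4 of the 33 genes and 248 of Myc.

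In other T classes the number of genes that differed from naive CD4 T-like cells varied by class and library. Treg-like cells summed to 1.16 to 1.31 times the naive level, with 3 to 8 genes higher, where 16.6% to 18.2% of all genes were, and 0 to 2 lower, where 5.7% to 7.18% were. Myc at 89.6 to 117 CPM (1.57 to 1.93 times), Odc1 at 191 to 240 (2.94 to 3.88 times) and Ybx3 at 94.9 to 122 (14.6 to 21.2 times) were the genes higher in all 5 libraries. Cycling T-like cells, 31 to 86 per library, summed to 1.40 to 3.02 times the naive level, the widest range of any class, with the isotype library at 3.02 and the next at 1.97. Ncl, Nhp2, Eif5a, Odc1, Pa2g4 and Ybx3 were higher in all 5 there, and 9 of 33, 21 of 33, 7 of 32, 28 of 31 and 17 of 30 genes tested were higher in the depleted anti-CTLA-4, depleted isotype, anti-CTLA-4, isotype and saline libraries, where 25%, 26.4%, 25.6%, 30.9% and 24.5% of all genes were. Lower were 1, 0, 4, 0 and 0, where 22%, 20.5%, 17.9%, 26.3% and 20.4% of all genes were, so in the depleted anti-CTLA-4 and anti-CTLA-4 libraries the share that was higher lay near that of all genes. Tfh-like cells, compared in the anti-CTLA-4 library with 40 cells, had a sum of 1.07 (1.01 to 1.14) times the naive level, yet Odc1 stood at 634 CPM, 8.48 times the naive 74.7. Of 30 genes tested 3 were higher there and 8 lower, where 30.5% and 18.6% of all genes were, and among the lower ones Npm1 was 0.581 (0.495 to 0.679) and Fbl 0.648 (0.447 to 0.909) times the naive level. In effector CD4 T-like cells, 23 to 67 per library, the sum was 0.714 to 1.01 times the naive level, Odc1 was 1.95 to 6.40 times and Srm 0.117 to 0.591 times. Lower were 17 of 33, 6 of 33, 12 of 29, 12 of 29 and 15 of 29 genes tested in the depleted anti-CTLA-4, depleted isotype, anti-CTLA-4, isotype and saline libraries, where 18.4%, 16.5%, 18.6%, 24.3% and 20.3% of all genes were, and 2, 4, 1, 1 and 1 were higher, where 19.4%, 18%, 20%, 20.6% and 22.6% were. Naive CD8 T-like cells summed to slightly more than naive CD4 T-like cells, with Myc at 79.9 to 104 against 49.03 to 69.6 CPM. Memory or effector CD8 T-like cells had Ybx3 at 2.85 to 3.15 times the naive CD8 level, the only gene higher in all 5 libraries, where 4.37% to 5.15% of all genes were.

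Cells with at least 1 Myc UMI were counted after each cell was thinned to 2000 UMIs, since depth differed between classes. In activated B-like cells 55.8%, 69.4% and 49.0% had a Myc UMI in the anti-CTLA-4, isotype and saline libraries, in growth-gene B cells 38.8%, 43.6% and 45.5%, in germinal centre B-like cells 14.9%, 13.5% and 3.70%, and in follicular cells 18.6%, 23.1% and 20.7%. Of these 4 classes activated cells had the highest share at this depth, with intervals that overlapped those of growth-gene cells in the saline library, 42.9% to 55.3% and 39.5% to 51.6%. Germinal centre cells had the lowest, with intervals that overlapped those of follicular cells in the anti-CTLA-4 and isotype libraries. Unthinned, the shares were 62.0%, 76.4% and 59.9% in activated, 61.7%, 65.0% and 65.8% in growth-gene, 39.7%, 48.6% and 25% in germinal centre and 25.1%, 31.99% and 28.7% in follicular cells, so without thinning growth-gene cells were above activated cells in the saline library, and germinal centre cells above follicular cells in the anti-CTLA-4 and isotype libraries. Plasmacytoid dendritic-like cells, taken as a class with little Myc RNA, had none in 21 to 32 thinned cells per library, which allows shares of up to 9.38% to 14.3%, and 0% to 3.70% unthinned at median depths of 9405 to 11161 UMIs.

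Within a class a cell's Myc UMI went with slightly more of the other 32 genes in some classes. In growth-gene B cells, cells with a Myc UMI had 20.5, 20.5 and 19.6 UMIs of the other genes among 2000 in the anti-CTLA-4, isotype and saline libraries, and cells without had 17.9, 17.9 and 16.6. The ratios were 1.15 (1.09 to 1.21), 1.15 (1.08 to 1.21) and 1.18 (1.113 to 1.245). Srm was 1.32, 1.53 and 1.51 and Odc1 1.61, 1.43 and 1.52 times as high in cells with a Myc UMI, while Eif5a was 1.12, 0.921 and 0.974 times. In activated B-like cells the ratios were 1.08 (0.984 to 1.19), 1.18 (1.05 to 1.34) and 1.06 (0.964 to 1.16), and in germinal centre B-like cells 1.00 (0.873 to 1.14) in the anti-CTLA-4 and 1.04 (0.840 to 1.27) in the isotype library. In the depleted anti-CTLA-4 library the germinal centre ratio was 1.29 (0.993 to 1.67) from 9 cells with a Myc UMI, and the depleted isotype and saline libraries had 4 and 1 such cells. Growth-gene T cells gave 1.16 to 1.41 over the 5 libraries, Treg-like cells 0.991 to 1.40, CD8 T-like cells 1.06 to 1.09 and conventional CD4 T cells 1.01 to 1.04. The growth-gene T class joins clusters unlike in Myc and in the summed genes, and the CD8 T-like and conventional CD4 T classes include some of these clusters. Naive CD8 T-like cells alone gave 0.978 to 1.06, memory or effector CD8 T-like cells 0.888 to 1.10 and naive CD4 T-like cells 0.985 to 1.025. The part of makeup in the ratios of these classes was not tested. Follicular cells gave 1.05 to 1.13 and memory-like B cells 0.953 to 1.07 over the anti-CTLA-4, isotype and saline libraries, and cycling T-like cells 0.930 to 2.10 over all 5, from 4 to 17 cells with a Myc UMI. These are cells of the same library and no replicates, and a single UMI is a coarse sign of Myc.

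**Figure D4:**
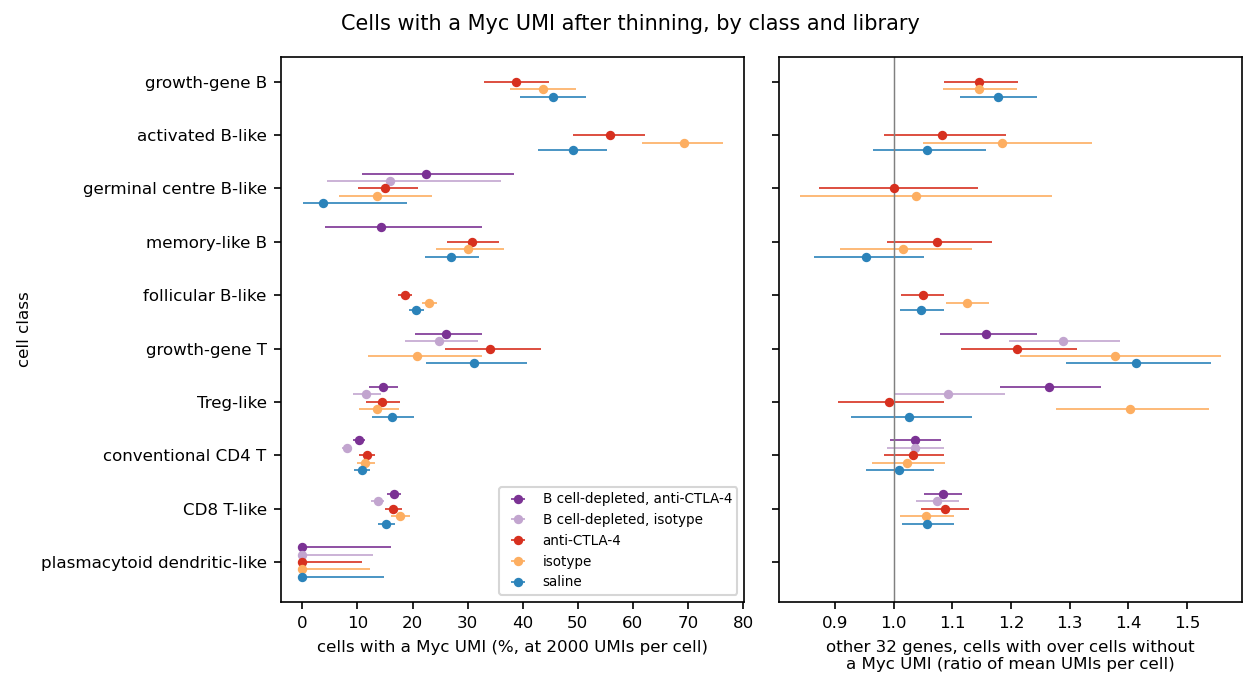
Left, share of cells with a Myc UMI after thinning to 2000 UMIs per cell (percent; bars, exact 95% interval), by cell class and library. Right, ratio of the summed other 32 genes in cells with a Myc UMI over cells without (bars, exact 95% interval), for classes with at least 10 cells with a Myc UMI. Activated B-like cells reach 49.0% to 69.4% and plasmacytoid dendritic-like cells have no such cell, and the ratios of growth-gene B and growth-gene T cells lie above 1.

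Between the study's groups the 33 genes differed little within a class. The comparisons asked about the glioma (isotype over saline), about CTLA-4 blockade with and without B cells, and about B cell depletion with each antibody. Conventional CD4 T cells and CD8 T-like cells include the CD4 and the CD8 clusters of growth-gene T cells, and growth-gene cells were compared in addition, a choice made after the clusters were seen. Of 27 pairs of a class and a comparison, 23 had a summed ratio between 0.9 and 1.11 and 20 had no gene at 1.5-fold, and 13 of 827 gene values, or 1.57%, reached it in either direction, where 2.82% of the values of all genes did over the same pairs. Comparisons share libraries and are not independent of each other.

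Activated B-like cells held the summed ratios farthest from 1 among the 27 pairs. Isotype over saline gave a sum of 5640.3 over 4372.3 CPM, a ratio of 1.29 (1.24 to 1.35), from 161 and 267 cells. Myc, at 1301 in the isotype and 772 in the saline library, was 1.68 (1.53 to 1.85) times as high and Ncl 1.49 (1.30 to 1.72) times. Myc, Wdr43, Nip7 and Ybx3 were the 4 of 18 genes tested that were higher, where 4.03% of all genes were, and none was lower, where 4.34% of all genes were. The immediate early and heat shock list had a summed ratio of 1.03 (1.01 to 1.06). Anti-CTLA-4 over isotype gave 0.829 (0.793 to 0.867) from 242 and 161 cells, with Myc at 0.698 (0.633 to 0.770) and Ncl at 0.685 (0.591 to 0.795), and 0 of 18 genes at 1.5-fold lower, where 1.95% of all genes were and 3.25% were higher. Both comparisons use the isotype library, which had the highest values. With no doublet removal they were 1.15 and 0.926.

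In germinal centre B-like cells anti-CTLA-4 over isotype gave 5924.0 over 6731.8 CPM, a ratio of 0.880 (0.858 to 0.903), from 184 and 74 cells, and 0.990 with no doublet removal. Cad at 0.412 (0.272 to 0.621), Srm at 0.586 (0.471 to 0.729), Bop1 at 0.628 and Polr1a at 0.650 were the 4 of 30 genes tested that were lower, where 2.75% of all genes were, and none was higher, where 5.61% were. Srm had 65.9 CPM in the anti-CTLA-4 and 112 in the isotype library, with the saline library at 47.9, the lowest. Npm1 had a ratio of 1.02 (0.965 to 1.09). The share of cells with a cycling UMI moved with these values, 80.4% in the anti-CTLA-4 and 90.5% in the isotype library, and so did median depth, 13134.5 and 17916.5 UMIs. Whether these had a part in the ratios was not tested.

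Follicular B-like cells had almost the same sum in all 3 libraries, with isotype over saline at 1.03 (1.02 to 1.05) and anti-CTLA-4 over isotype at 0.985 (0.972 to 0.998), and no gene at 1.5-fold. Of all genes 1.15% were higher and 1.42% lower in isotype over saline, and 1.01% and 0.792% in anti-CTLA-4 over isotype. Growth-gene B cells had no gene at 1.5-fold either, with sums at 1.02 (1.00 to 1.05) and 0.982 (0.962 to 1.00), and of all genes 1.44% were higher and 2.07% lower in isotype over saline and 1.92% and 1.27% in anti-CTLA-4 over isotype. In growth-gene B cells Myc had a ratio of 0.770 (0.699 to 0.847) in isotype over saline and 0.857 (0.769 to 0.955) in anti-CTLA-4 over isotype. In follicular cells Myc had a ratio of 1.15 (1.09 to 1.21) in isotype over saline and 0.753 (0.713 to 0.794) in anti-CTLA-4 over isotype, where Myc was the gene farthest from 1. In isotype over saline the follicular gene farthest from 1 was Polr1b, at 5.88 and 7.91 CPM. Immediate early and heat shock genes of follicular cells moved alongside, with summed ratios of 1.22 and 0.765. Memory-like B cells summed to 1.08 (1.04 to 1.11) in isotype over saline and 0.988 (0.957 to 1.02) in anti-CTLA-4 over isotype and are not among the 27 pairs. The 7 follicular clusters differed in Myc and in their shares. An Egr1-led cluster with 356 to 451 CPM of Myc made up 11.0% of anti-CTLA-4, 21.2% of isotype and 14.2% of saline follicular cells, and an Hspa1a-led cluster with 260 to 273 made up 6.87%, 19.1% and 4.63%. Within these clusters Myc in anti-CTLA-4 over isotype was 0.925 (0.836 to 1.02) and 1.04 (0.891 to 1.21), and in the largest cluster, at 91.4 and 122 CPM, 0.749 (0.653 to 0.858). It was 0.610 (0.450 to 0.831) in a Slit3-led cluster and 0.859 to 1.10 in the other 3. In isotype over saline Myc was 0.851 (0.781 to 0.928) in the Egr1-led, 0.954 (0.801 to 1.14) in the Hspa1a-led, 1.11 (0.974 to 1.27) in the largest and 1.79 (1.246 to 2.59) in the Slit3-led cluster, and 0.846 to 1.09 in the other 3, so clusters lay on both sides of 1 where the class as a whole was at 1.15.

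In the broad T classes the ratios lay near 1. Conventional CD4 T cells gave 1.00 (0.985 to 1.02) in isotype over saline, 1.04 (1.03 to 1.06) in anti-CTLA-4 over isotype, 0.966 (0.953 to 0.979) for depletion in isotype-treated mice, 0.981 (0.969 to 0.993) for depletion in anti-CTLA-4-treated mice, and 1.06 (1.05 to 1.07) in anti-CTLA-4 over isotype after depletion. In all 5 comparisons no gene reached 1.5-fold. Of all genes 0.93%, 1.42%, 1.51%, 0.966% and 0.71% were higher, in the order given, and 1.01%, 0.447%, 0.979%, 0.925% and 0.306% lower. Myc was 1.22 (1.12 to 1.33) times as high in anti-CTLA-4 over isotype after depletion and 0.757 (0.683 to 0.840) times in depleted over not depleted under isotype. CD8 T-like cells gave 0.936 (0.925 to 0.947) in isotype over saline and 0.970 to 1.06 in the other 4, with no gene at 1.5-fold. There 0.627%, 0.924%, 1.45%, 1.09% and 0.536% of all genes were higher and 0.957%, 0.435%, 0.674%, 0.723% and 0.297% lower. Treg-like cells gave 1.11 (1.07 to 1.14) in isotype over saline and 0.946 to 1.03 in the others, with Nhp2 at 1.47 (1.16 to 1.85) in isotype over saline. Polr1a, at 1.5 (1.02 to 2.26) in depleted over not depleted under isotype, and Cad, at 1.55 (1.01 to 2.42) under anti-CTLA-4, were the only genes at 1.5-fold in Treg-like cells, each 1 of 31 tested, where 3.87% and 1.37% of all genes were higher and 1.1% and 0.933% lower. In the other 3 comparisons, isotype over saline and anti-CTLA-4 over isotype in mice that kept their B cells and in depleted mice, 0.975%, 3.56% and 1.21% of all genes were higher and 4.1%, 0.812% and 0.349% lower.

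Growth-gene T cells after depletion differed in sum, with 10348.0 CPM under anti-CTLA-4 and 12151.3 under isotype, a ratio of 0.852 (0.835 to 0.868) from 217 and 181 cells. Ncl was 0.778 (0.730 to 0.828) and Npm1 0.826 (0.792 to 0.861) times the isotype level, and Odc1 1.02 (0.904 to 1.16), and no gene reached 1.5-fold, where 1.16% of all genes were lower and 1.78% higher. The makeup of the class moved with the sum. The CD8 cluster with the most of the 33 genes made up 5.53% of these cells under anti-CTLA-4 and 11.1% under isotype, and the cluster of 155 cells with Il2, Nr4a1 and Irf4 among its leading genes 18.4% and 24.3%. Within clusters the ratios were 0.818 (0.785 to 0.852) in the CD8 cluster, from 12 and 20 cells, and 0.968 to 1.06 in the other 4. Depleted over not depleted gave 1.04 (1.01 to 1.07) under isotype, with Bop1 at 0.607 (0.431 to 0.863), the only one of 31 genes tested at 1.5-fold, where 1.6% of all genes were lower and 6.36% higher. Under anti-CTLA-4 depletion gave 0.910 (0.889 to 0.931), with no gene at 1.5-fold, where 1.51% of all genes were higher and 2.45% lower. With B cells present, anti-CTLA-4 over isotype gave 0.975 (0.946 to 1.00), and Bop1, at 0.599 (0.405 to 0.887), was the only one of 28 genes tested at 1.5-fold, where 1.24% of all genes were lower and 7.83% higher. Myc in isotype over saline was 0.620 (0.499 to 0.766) from 69 and 106 cells, 205 and 331 CPM, the only one of 29 genes tested at 1.5-fold, where 3.55% of all genes were lower and 1.45% higher.

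**Figure D5:**
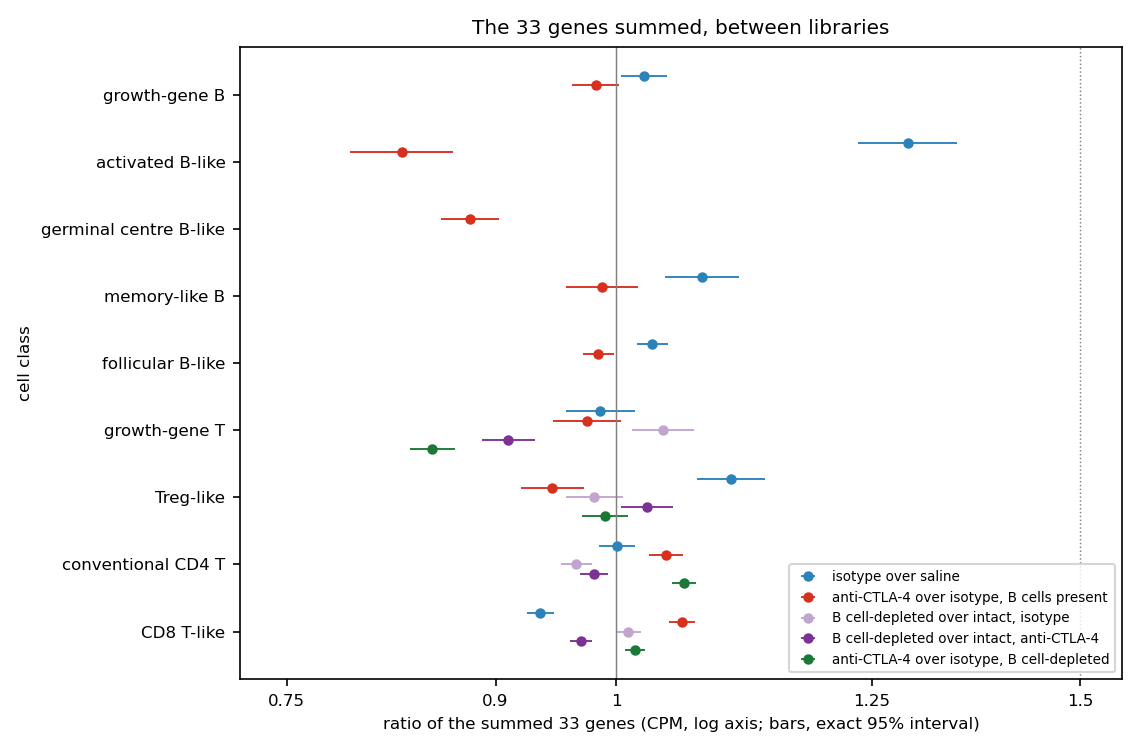
Ratio of the summed 33 genes (horizontal log axis, CPM; bars, exact 95% interval) between libraries for 5 comparisons, by cell class, each with the first-named group over the second. Most points lie between 0.9 and 1.11, and activated B-like cells stand apart at 1.29 in isotype over saline and 0.829 in anti-CTLA-4 over isotype.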

How the data were processed

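Counts of UMIs per gene and cell barcode were used as deposited for 5 gene expression libraries, whose counting tool was Cell Ranger 7.0.1, per the file headers; bcl2fastq 2.20.0 and mm10 are named in the submitters' processing notes. The 3 receptor libraries were not used. Cells with at least 500 genes and at most 10% mitochondrial UMIs were kept, and the highest Scrublet scores, 0.8% per 1000 barcodes (650 to 1112 per library), were removed as doublets. Cells were clustered without the members (scanpy 1.11.5, leidenalg 0.10.2, igraph 0.11.9, Python 3.11.15, Leiden resolution 1, seed 0) and named from markers; naming thresholds, and the use of growth-gene classes in group comparisons, were set after clusters were seen. Pairs of libraries shared 1.21% to 1.70% of barcodes.

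Counts were summed per class and library, in classes of at least 20 cells (50 between groups). Ratios have exact conditional binomial intervals, levels exact Poisson intervals and shares exact binomial intervals (scipy 1.17.1), for counting error only; the scripts were tested on simulated data. A share of 0 allows up to 3 cells. Members and lists were chosen with earlier results of these data known. Named throughout were Myc, Srm, Odc1, Fbl, Nop56, Dkc1, Polr1b, Ncl, Npm1, Bop1 and Eif5a, and per comparison the 2 highest and 2 lowest ratios by the bound nearest 1; other genes were named after their values were seen. Alternatives covered scaling, count and cell filters, doublets, resolution and left-out cells. Promoter windows and gene positions are from RefSeq (GRCm38.p6).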

Additional observations from a re-analysis of the deposited data

Results flagged for a closer look

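Ratios of a gene in a class were matched for anti-CTLA-4 over isotype and for depleted over not depleted, which gave 441 cases. Of these, 7 had intervals on opposite sides of 1, and so did 1 sum. Myc in growth-gene T cells and Ybx3 in CD8 T-like cells count under both kinds, and some classes lie within others. The differences themselves were not tested, each comparison had 1 library per group, and both kinds of comparison use the same 4 libraries.

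In growth-gene T cells Myc under anti-CTLA-4 over isotype was 0.7598 (0.665 to 0.868) after B cell depletion and 1.3494 (1.09 to 1.68) with B cells present. Seen the other way, depleted over not depleted was 0.782 (0.670 to 0.914) for Myc under anti-CTLA-4 and 1.3888 (1.14 to 1.71) under isotype, and the summed 33 genes gave 0.9101 and 1.0419. Over the processing alternatives these sums ran from 0.845 to 1.03 and from 0.927 to 1.30, so each lay on the other side of 1 in some. The isotype library with B cells had the lowest Myc of the 5, from 69 cells. The share of clusters in the class moved with these values, and within the cluster of 155 cells Myc under anti-CTLA-4 over isotype was 0.981 (0.793 to 1.22) after depletion and 2.54 (1.66 to 4.04) with B cells present, where the isotype library held 11 of its cells. The part of class makeup was not tested.

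In Treg-like cells anti-CTLA-4 over isotype was 1.1608 after depletion and 0.8023 with B cells for Nolc1, and 0.7872 after depletion and 1.323 with B cells for Gar1. In CD8 T-like cells Ybx3 was 0.823 after depletion and 1.1795 with B cells, and depleted over not depleted was 0.797 under anti-CTLA-4 and 1.1424 under isotype. Npm1 in CD8 T-like cells was 0.972 under anti-CTLA-4 and 1.0437 under isotype in depleted over not depleted.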

How the results depend on the processing

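No paired analysis was possible because each group had 1 library, and for the same reason no replicate could be left out. Of the recomputed summary values 169 stayed within their counting interval or range over libraries or, for counts, within 1.5 times, and 80 moved. Among single genes and the remaining class sums 5768 stayed and 489 moved. A reversal was counted only for ratios at 1.5-fold, and none of those reversed. Smaller ratios could cross 1 without being counted. Conventional CD4 T cells in anti-CTLA-4 over isotype, at 1.04, ran from 0.947 to 1.105 over the alternatives. Causes were not tested except where fewer cells or libraries enter by construction. Values below follow the order isotype over saline, anti-CTLA-4 over isotype, depletion in isotype-treated and in anti-CTLA-4-treated mice, anti-CTLA-4 over isotype after depletion, and classes over follicular cells (means over libraries 3.65 for growth-gene B, 1.66 for activated and 2.02 for germinal centre cells; genes higher summed over libraries 99, 37 and 68). "Genes" are those at 1.5-fold over 6 B and T classes, 4, 4, 1, 1 and 0 in these comparisons.

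With median-ratio size factors follicular isotype over saline was 1.06, anti-CTLA-4 over isotype 0.853 in germinal centre and 0.943 in follicular cells, genes 0 and 2 in depleted over not depleted under isotype and anti-CTLA-4, CD4 T cells 0.995 under anti-CTLA-4 and 1.04 after depletion, growth-gene B 3.73 and germinal centre 1.74. With members, receptor, ribosomal protein and mitochondrial genes left out of the total, genes were 0 under isotype, CD4 T cells 1.04 after depletion and growth-gene B 3.79. Per cell, anti-CTLA-4 over isotype was 0.745 in activated, 0.663 in germinal centre and 0.899 in follicular cells with 28 genes, CD4 T cells 0.996 and 1.13 in depleted over not depleted (10 genes in the second) and 1.08 after depletion, growth-gene B 5.98 and germinal centre 8.56. With at least 20 UMIs genes were 8, 11 and 2 (isotype over saline, anti-CTLA-4 over isotype, depleted under anti-CTLA-4), and with the lower fold tried for a call 18, 28, 5, 12 and 4, and 59 in activated cells. Without Npm1 and Ncl, anti-CTLA-4 over isotype was 0.849 in germinal centre and 0.966 in follicular cells, and CD4 T cells 0.943 (depleted, isotype) and 1.07 (after depletion).

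With no doublet removal activated cells were 1.15 in isotype over saline and 0.926 in anti-CTLA-4 over isotype, germinal centre cells 0.990 with 2 genes, genes 0 and 2 in depleted over not depleted, CD4 T cells 1.04 after depletion, growth-gene B 3.48, activated 1.45 with 20 genes, cells with a Myc UMI 46.8% of growth-gene B and their ratio 1.104. With at least 1000 genes and at most 5% mitochondrial UMIs activated cells were 1.19 with 2 genes and 0.917, CD4 T cells 1.005 with 0 genes and 0.952 with 2 genes in depleted over not depleted and 1.05 after depletion, and growth-gene B 3.20. At Leiden resolution 2 activated isotype over saline was 1.17 with 1 gene, CD4 T cells 0.989 and 0.962 with 2 genes, and growth-gene B 3.44. With members among the variable genes activated anti-CTLA-4 over isotype was 0.878, genes 0 and 2, and growth-gene B 3.62. Without cells with another lineage's UMIs genes were 0 and 0, and without shared barcodes 0 and 2. Without cycling cells genes were 0 in anti-CTLA-4 over isotype and in depleted over not depleted under anti-CTLA-4, growth-gene B 3.57, and germinal centre 1.29 with 10 genes in the anti-CTLA-4 library alone, the only one that kept 20 such cells, against 2.02 with 22 genes with all its cells. Without the isotype library, with fewer libraries summed, genes were 21 in activated and 41 in germinal centre cells. Thinned to 1000 UMIs, 29.2% of growth-gene B and 46.6% of activated cells had a Myc UMI, and the growth-gene B ratio was 1.18.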

Other observations

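Outside the B and T classes compared above, Odc1 was the most abundant of the 33 genes in NK-like cells, where 425 cells gave it 17.3% of their summed UMIs, against 1.60% in follicular B-like cells. It also took 13.6% in 51 gamma-delta T-like and 7.78% in 90 innate lymphoid-like cells. Myc made up 5.70% in innate lymphoid-like and 0.09% in plasmacytoid dendritic-like cells. These are levels per class over all 5 libraries, given as a description with no test.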
